A study of Homo sapiens with 6 samples.

Results

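The TRIM (tripartite motif) genes were taken as every gene of the deposited table whose symbol is TRIM followed by a number and at most 1 letter, which gave 73 of 20036 genes. RNA had been sequenced from KGN, an established line from a human ovarian granulosa cell tumour, in 6 libraries. All cells were wild type and received a small interfering RNA (siRNA) by lipid transfection. Wild type here refers to the line as used and says nothing about mutations carried by the tumour. The groups were a negative control (siNC), siOGT1 and siOGT2, with 2 libraries each, harvested at 48 hours. Both siOGT reagents target the mRNA of OGT, which encodes the transferase for O-GlcNAc, a sugar added to many nuclear and cytosolic proteins. The labels do not say whether the libraries of a group came from separate cultures, so p-values measure only the spread between these libraries, which may be technical. There was no untransfected group, so the siNC libraries give the level in transfected cells.

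TRIM proteins are a large family of ubiquitin ligases. Most have a RING domain, which recruits the ubiquitin-conjugating (E2) enzyme, then B-box domains and a coiled coil through which they pair. The end of the protein differs between subfamilies and picks the target: a SPRY domain in many antiviral members, NHL repeats, or a PHD finger and bromodomain in those that act on chromatin. A subset is induced by interferon and either blocks viruses directly or tunes the sensing of foreign nucleic acid. Interferon induces genes through transcription factors that bind the interferon-stimulated response element in their promoters.

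The members were split into 10 interferon-linked genes (TRIM5, TRIM14, TRIM21, TRIM22, TRIM25, TRIM26, TRIM34, TRIM38, TRIM56 and TRIM69) and the other 63. This split was chosen with earlier results of these data known. TRIM6, which also acts in interferon signalling, was left among the others. To show what the promoters of the interferon-linked members look like, the core of the interferon-stimulated response element, written GAAANNGAAA, was searched on both strands. The search covered RefSeq promoter windows (GRCh38.p14), which run from 250 bases before to 50 bases after a gene's start, and overlapping matches were all kept. Of 9 interferon-linked members with a window, 6 held a match (66.7%). Among the other members it was 4 of 49 (8.16%), or 3 of 20 (15.0%) for those later tested for differences. Counted by gene in the same way, 1195 of all 27303 genes with a window held a match (4.38%). Counted by window it was 1255 of 35114 (3.57%). Matching windows belonged to TRIM21, TRIM5, TRIM26, TRIM14, TRIM69 and TRIM34, the last in 1 of its 2 windows. The windows of TRIM25, TRIM56 and TRIM38 did not hold these letters. A match is a description of the sequence and says nothing about binding in these cells.

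The matching stretches are shown for the interferon-linked members that held a match. Each is printed 5′ to 3′ on the gene's own strand, with the matched letters in capitals. TRIM21 (chr11:4393663-4393692, minus strand) has 2 overlapping matches from 18 to 33 bases after the start, on the gene's strand. In TRIM5 (chr11:5685075-5685136, minus strand) the match lies 27 to 18 bases before the start. TRIM26 (chr6:30213550-30213635, minus strand) has 2 overlapping matches from 194 to 179 bases before the start. For TRIM14 (chr9:98119223-98119283, minus strand) the position is 26 to 17 bases before the start. TRIM69 (chr15:44736431-44736510, plus strand) holds its match 62 to 53 bases before the start, and TRIM34 (chr11:5624876-5624955, plus strand) 90 to 81 bases before. In all of these except TRIM21 the match reads on the opposite strand, so it appears as the reverse complement. Starts are those of RefSeq. In TRIM5, TRIM69 and TRIM34 the stretch before that start lies inside the longer gene span of GENCODE release 29. TRIM44 (chr11:35662705-35662774, plus strand), a member outside the interferon-linked list, is shown for contrast. Its match lies 35 to 26 bases before the start on the gene's strand. Outside the list TRIM16, TRIM64C and TRIM2, the last in 1 of its 6 windows, also held a match and are not shown.
TRIM21: ctgagcgGAAACTGAAAGTGAAAtagggag
TRIM5: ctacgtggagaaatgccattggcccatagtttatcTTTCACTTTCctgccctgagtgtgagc
TRIM26: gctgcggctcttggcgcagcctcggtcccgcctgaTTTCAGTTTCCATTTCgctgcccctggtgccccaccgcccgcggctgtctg
TRIM14: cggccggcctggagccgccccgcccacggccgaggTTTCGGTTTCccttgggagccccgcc
TRIM69: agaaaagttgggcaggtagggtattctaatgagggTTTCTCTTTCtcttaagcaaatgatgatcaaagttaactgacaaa
TRIM34: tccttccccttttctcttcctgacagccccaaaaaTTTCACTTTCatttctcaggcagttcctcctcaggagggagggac
TRIM44: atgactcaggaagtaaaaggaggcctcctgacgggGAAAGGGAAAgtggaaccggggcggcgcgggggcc

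Levels are deposited FPKM, that is fragments scaled to transcript length and library size. Comparisons and sums between genes rest on an annotation and a way of counting that the sources used here do not give. Reads recovered from the FPKM steps came to between 16756649 and 21416489 per library. The test was limma's, two-sided, on log2(FPKM + 1), for genes whose FPKM averaged 1 or more across libraries. A gene was called when its Benjamini-Hochberg adjusted p over the 10547 tested genes was under 0.05. Differences are on the log2(FPKM + 1) scale, which understates the change of low genes, and are given ± the standard error of the fit. In bulk RNA, fewer expressing cells and less RNA per cell cannot be told apart. OGT was at 22.4 and 23.4 FPKM under siNC, 13.8 and 12.9 under siOGT1, and 14.3 and 14.7 under siOGT2, so it stood at 58.3% and 63.2% of siNC (adjusted p = 9.3e-06 and 8.88e-06). Of 12 granulosa markers, 7 were tested, among them NR5A1 and FOXL2, while FSHR was listed at 0 and CYP19A1 and AMHR2 at or near 0 in every library.

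Of the 73 TRIM genes, 38 passed the filter, 21 were above 0 but below it, and 14 were listed at 0 in every library. The 14 included TRIM49, TRIM51, TRIM64 and TRIM77. TRIM62, at a mean of 0.991 FPKM, lay just below the filter and TRIM45, at 1.13, just above it. Below TRIM62 the next member was TRIM7 at 0.317 FPKM. Values near 0 were not read as absent expression: TRIM32 had at most 2 reads in a library, and CHD4, a widely expressed chromatin remodeller, was listed at 0.534 to 0.629 FPKM. Among the interferon-linked members TRIM34 did not pass, with 4 to 9 reads per library, and 83.0% of its exon bases are shared with the annotated read-through gene TRIM6-TRIM34.

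All 9 tested interferon-linked TRIM genes fell when both siRNAs were averaged, and in each the 4 siOGT libraries lay below both siNC libraries. Among all tested genes 11.8% were called lower in that comparison and 13.3% had all 4 siOGT libraries below both siNC libraries. The median difference of the 9 genes was -0.58, against 0.04 for all tested genes. With siOGT1 alone 7 of 9 fell and none rose (8.1% of all tested genes were lower, 17.6% called). With siOGT2 alone all 9 fell (13.4% lower, 35.5% called). Of the 29 other tested members, 7 rose with both siRNAs averaged and 22 were not called, where 19.4% of all tested genes rose and 31.1% were called. These comparisons share the siNC libraries and are not independent of one another. The interferon-linked list was chosen with earlier results known, so these counts describe its genes and are no independent test of the class.

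**Figure D1:**
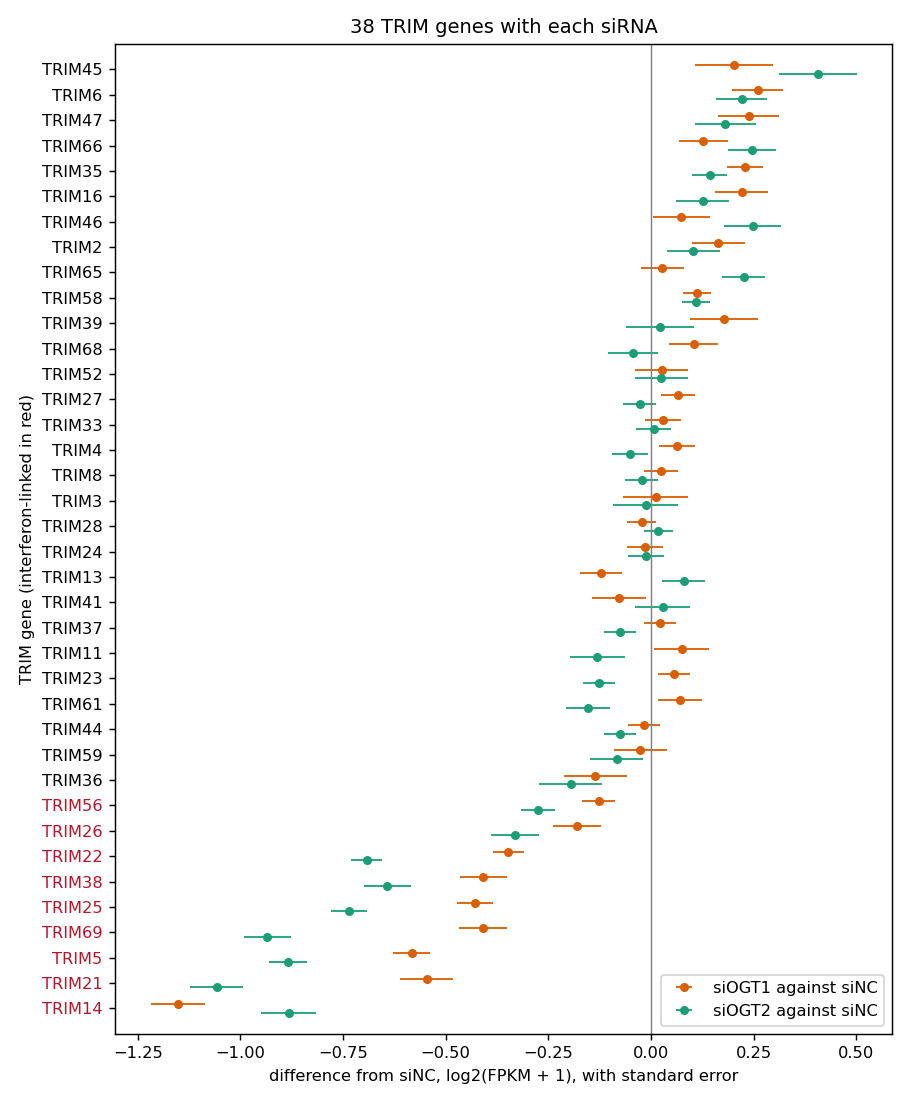
Difference from siNC in log2(FPKM + 1) for the 38 tested TRIM genes, with siOGT1 in orange and siOGT2 in green; bars are standard errors of the fit and interferon-linked genes are named in red. Genes are ordered by the average of both siRNAs. The 9 interferon-linked genes hold the lowest places, from TRIM56 to TRIM14, and the other 29 lie between -0.20 and 0.41.

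Values are given first for members that act on viruses directly. TRIM21, a cytosolic antibody receptor that marks antibody-coated virus for degradation (chromosome 11, 4384897 to 4393696 in GRCh38, minus strand), had 69.0 and 66.0 FPKM with siNC. It had 49.3 and 42.8 with siOGT1, and 33.4 and 30.5 with siOGT2. The 3 groups were fully separated, siOGT2 lowest. TRIM21 fell by 0.55 ± 0.06 with siOGT1 (adjusted p = 0.000431) and by 1.06 ± 0.06 with siOGT2 (adjusted p = 3.45e-06), to 68.2% and 47.3% of siNC.

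TRIM5, which recognises the capsid of incoming retroviruses (chromosome 11, 5663557 to 5938619, minus strand), was at 43.3 and 42.8 FPKM with siNC. With siOGT1 it was at 29.4 and 27.4, and with siOGT2 at 23.8 and 22. Libraries of a group lay close together and the groups did not overlap. TRIM5 fell to 66.0% of siNC with siOGT1 (adjusted p = 4.4e-05) and to 53.2% with siOGT2 (adjusted p = 1.57e-06). TRIM22, an interferon-induced nuclear protein that restrains viral transcription, lies on the opposite strand at 5689689 to 5737089. That is within the TRIM5 span of GENCODE release 29, but upstream of the RefSeq start from which the TRIM5 match was measured. TRIM22 stood at 51.8 and 50.1 FPKM under siNC, 40.8 and 38.8 under siOGT1, and 31.7 and 30.6 under siOGT2. The order of the groups was that of TRIM21 and TRIM5. TRIM22 fell by 0.35 ± 0.04 with siOGT1 (adjusted p = 0.000275) and by 0.69 ± 0.04 with siOGT2 (adjusted p = 1.86e-06). TRIM69, which binds microtubules and restricts some RNA viruses (chromosome 15, 44728988 to 44767829, plus strand), had 22.2 and 21.1 FPKM under siNC, 17.04 and 15.1 under siOGT1, and 11.2 and 10.5 under siOGT2. Its siOGT2 libraries were at 50.1% of siNC (adjusted p = 4.02e-06) and its siOGT1 libraries at 74.3% (adjusted p = 0.00128).

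**Figure D2:**
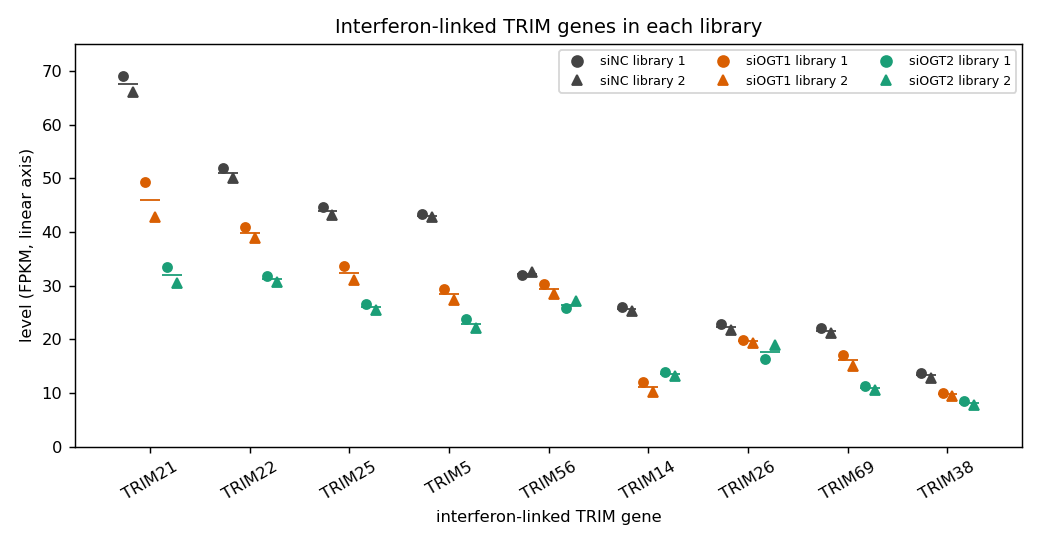
Level in FPKM (linear axis) of the 9 tested interferon-linked TRIM genes; each point is 1 library, circles library 1 and triangles library 2, and the dash is the group mean. In each gene the 4 siOGT libraries lie below both siNC libraries, and only TRIM14 has its siOGT1 libraries below its siOGT2 libraries.

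Members that act on the sensing of viral RNA and DNA fell too, 3 of them with both siRNAs. TRIM25, which works with the RNA sensor RIG-I and the antiviral protein ZAP (chromosome 17, 56836387 to 56914080, minus strand), had 44.7 and 43.1 FPKM under siNC, 33.7 and 31.1 under siOGT1, and 26.5 and 25.4 under siOGT2. The groups did not overlap, and levels were 73.7% of siNC with siOGT1 (adjusted p = 0.000191) and 59.2% with siOGT2 (adjusted p = 3.22e-06). TRIM14, a RING-less adaptor in mitochondrial antiviral signalling (chromosome 9, 98069275 to 98119212, minus strand), was at 26.1 and 25.3 FPKM with siNC. It was at 11.98 and 10.1 with siOGT1, and at 13.9 and 13.1 with siOGT2. TRIM14 had the lowest siOGT1 level relative to siNC of any tested member, 43.0% (difference -1.15 ± 0.07, adjusted p = 8.35e-06), and stood at 52.5% with siOGT2. TRIM38, a restraint on inflammatory signalling (chromosome 6, 25962802 to 25991226, plus strand), went from 13.7 and 12.8 FPKM with siNC to 10.0 and 9.45 with siOGT1 and to 8.57 and 7.72 with siOGT2. Its groups were separated, and it was called with both siRNAs (adjusted p = 0.00119 and 4.69e-05).

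The smallest differences within the class were in TRIM56 and TRIM26. TRIM56 takes part in sensing of DNA and double-stranded RNA (chromosome 7, 101085439 to 101097967, plus strand). It had 31.9 and 32.5 FPKM under siNC, 30.3 and 28.5 under siOGT1, and 25.8 and 27.1 under siOGT2. TRIM26, encoded in the major histocompatibility region (chromosome 6, 30184455 to 30213427, minus strand), had 22.9 and 21.8 FPKM under siNC, 19.8 and 19.4 under siOGT1, and 16.3 and 18.8 under siOGT2. In both genes every siOGT library lay below both siNC libraries, by narrower margins than in the other interferon-linked members. With siOGT2 the differences were -0.28 ± 0.04 for TRIM56 (adjusted p = 0.00104) and -0.33 ± 0.06 for TRIM26 (adjusted p = 0.00264). With siOGT1 both were called after scaling by a trimmed mean of log ratios (adjusted p = 0.0312 and 0.04). The same held with limma's voom on recovered reads (adjusted p = 0.00268 and 0.00365). Of 17 alternative settings, 13 left TRIM56 uncalled with siOGT1 and 10 left TRIM26 uncalled. In the main fit neither passed with siOGT1, at -0.13 ± 0.04 (adjusted p = 0.0596) and -0.18 ± 0.06 (adjusted p = 0.0647). Without the first siNC library TRIM26 was not called for the average of both siRNAs either (adjusted p = 0.0636).

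Some of these genes overlap others, and no source used here gives whether counting used strand. In GENCODE release 29, exon bases shared with another gene came to 7.7% of TRIM14 (with NANS, opposite strand), 8.0% of TRIM5 and 10.7% of TRIM22 (with OR56B1). For TRIM25 and TRIM38 no single overlapping gene shared more than 5.7% and 2.9%. None was listed for TRIM21, TRIM26, TRIM56 or TRIM69.

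Summed over the class, the interferon-linked members came to 325.7 and 315.6 FPKM under siNC, 242.5 and 222.7 under siOGT1, and 191.3 and 185.8 under siOGT2. The other members came to 292.0 and 299.1, then 306.6 and 314.3, then 298.9 and 303.1 FPKM. The interferon-linked share of the summed TRIM FPKM was thus 52.7% and 51.3% under siNC. It was 44.2% and 41.5% under siOGT1, and 39.0% and 38% under siOGT2. Markers of leukocytes and endothelium were low. None of 6 leukocyte markers was tested, LYZ was listed at 0 in every library, and the summed level was 0.794 to 0.866 FPKM with siNC, 0.580 to 0.606 with siOGT1 and 0.475 to 0.672 with siOGT2. The sum of 4 endothelial markers, none of them tested, was 1.16 to 1.33, 0.782 to 0.894 and 1.01 to 1.09 FPKM. Both sums were below 1% of the interferon-linked sum. Of 5 theca and fibroblast markers COL1A1 alone was tested, at 258.0 to 295.9 FPKM, and INSL3 was listed at 0.

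**Figure D3:**
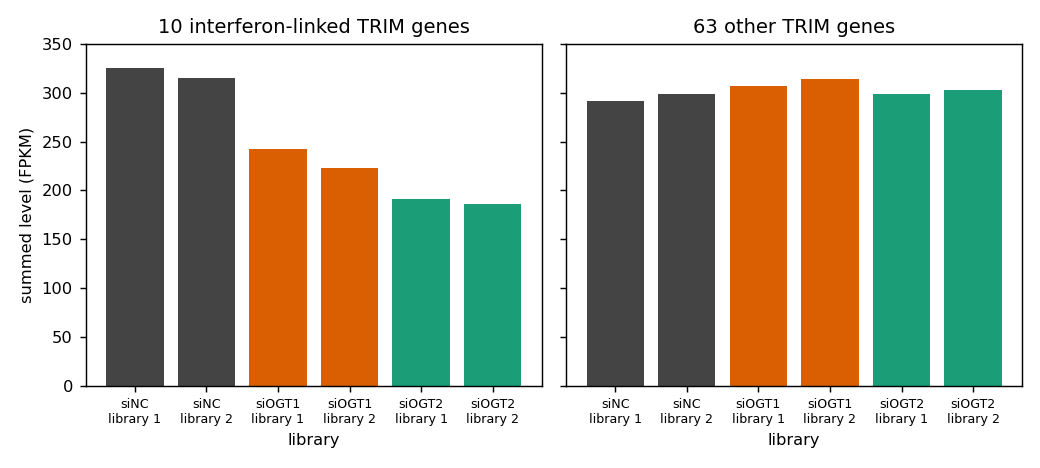
Summed FPKM of the 10 interferon-linked and the 63 other TRIM genes, 1 bar per library. The interferon-linked sum steps down from 325.7 and 315.6 with siNC to 191.3 and 185.8 with siOGT2, and the sum of the others stays between 292.0 and 314.3.

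Outside the interferon-linked list, 7 members had all 4 siOGT libraries above both siNC libraries (28.4% of all tested genes did), and 21 overlapped. TRIM36 was the only one with all 4 below, and it was not called. With siOGT1, 3 rose and none fell, where 9.51% of tested genes rose. With siOGT2, 7 rose and 1 fell, where 22.1% rose. The shares of members that rose, 3 and 7 of 29, lie near those backgrounds. TRIM35 and TRIM6 were called higher with each siRNA. Their siOGT2 calls were lost with values scaled by a trimmed mean of log ratios (adjusted p = 0.118 and 0.0576), and that of TRIM35 also with equal sums (0.063) and quantile normalization (0.0565). TRIM35, a RING and SPRY member, had 7.76 and 7.92 FPKM under siNC, 9.47 and 9.26 under siOGT1, and 8.91 and 8.62 under siOGT2 (average difference 0.19 ± 0.04, adjusted p = 0.0053). TRIM6, which makes free ubiquitin chains in interferon signalling, had 6.15 and 6.91, 7.87 and 8.14, and 8.14 and 7.41 FPKM (0.24 ± 0.05, adjusted p = 0.0092). Of its exon bases 29.3% are shared with TRIM6-TRIM34.

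TRIM58, known for degrading dynein in red cell precursors, had the highest level of any member averaged over all 6 libraries, and the means of TRIM21 (67.5 FPKM) and TRIM58 (67.2 FPKM) under siNC were close. TRIM58 was at 65.9 and 68.5 FPKM under siNC, 72.0 and 73.3 under siOGT1, and 71.0 and 74.1 under siOGT2. The siOGT libraries lay above siNC by a small margin, 0.11 ± 0.03 on average (adjusted p = 0.0202). TRIM66, a chromatin member without a RING, had 2.20 and 2.27, 2.52 and 2.56, and 2.75 and 2.93 FPKM (0.19 ± 0.05, adjusted p = 0.0217). TRIM45 had 0.727 and 0.956 FPKM under siNC, 1.12 and 1.11 under siOGT1, and 1.251 and 1.64 under siOGT2 (0.31 ± 0.08, adjusted p = 0.0213). It passed the filter only because of its siOGT libraries, so its call is no independent support for a rise. TRIM47 had 3.23 and 3.32, 3.68 and 4.44, and 3.74 and 3.97 FPKM (0.21 ± 0.06, adjusted p = 0.0336), and 51.5% of its exon bases lie opposite an antisense gene. TRIM16, a RING-less member tied to the autophagy of damaged lysosomes, had 5.48 and 5.96, 6.96 and 6.70, and 5.92 and 6.76 FPKM (0.17 ± 0.06, adjusted p = 0.041), with 1 siOGT2 library inside the siNC range. It shares 23.5% of its exon bases with a protein-coding gene on the same strand. With siOGT1 alone TRIM16 was called, and TRIM58 (adjusted p = 0.0514), TRIM66 (0.17), TRIM45 (0.178) and TRIM47 (0.0533) were not. With siOGT2 alone TRIM58, TRIM66 and TRIM45 were called, and TRIM47 (adjusted p = 0.0828) and TRIM16 (0.156) were not.

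Calls among the 7 rises depended on the libraries used. Without the first siNC library none of the 7 was called (adjusted p = 0.0521 to 0.271), their differences stayed above 0 (0.08 to 0.22), and 8 TRIM genes in all were called for the average of both siRNAs, each of them lower. Without the second siNC library TRIM66, TRIM47 and TRIM16 were not called (adjusted p = 0.0691 to 0.121). With each of the 6 libraries left out in turn, the interferon-linked calls for siOGT1 (7) and siOGT2 (9) were kept every time. Of the calls outside that list, 2 of 3 with siOGT1 and 8 of 8 with siOGT2 were lost in at least 1 of the 6 fits. The exception was TRIM35 with siOGT1 (largest adjusted p = 0.0484). Calls with siOGT1 went from 10 to 16 TRIM genes when limma's voom was run on the recovered reads.

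TRIM65 and TRIM46 rose with siOGT2 and were not called for the average of both siRNAs. TRIM65, which ubiquitinates the RNA sensor MDA5, had 4.94 and 4.81 FPKM under siNC, 4.81 and 5.17 under siOGT1, and 5.999 and 5.74 under siOGT2 (0.23 ± 0.05, adjusted p = 0.0101). TRIM46, which bundles microtubules at the start of the axon, had 1.248 and 1.26, 1.47 and 1.28, and 1.66 and 1.70 FPKM (0.25 ± 0.07, adjusted p = 0.0227). TRIM23, a member with an ARF-type GTPase domain, fell with siOGT2: it had 18.6 and 19.5, 19.4 and 20.3, and 17.3 and 17.5 FPKM (-0.13 ± 0.04, adjusted p = 0.0332). The siOGT1 differences of these 3 genes were not called. Between the siRNAs TRIM65 (adjusted p = 0.0317) and TRIM23 (adjusted p = 0.0129) differed, and TRIM46 was not called.

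**Figure D4:**
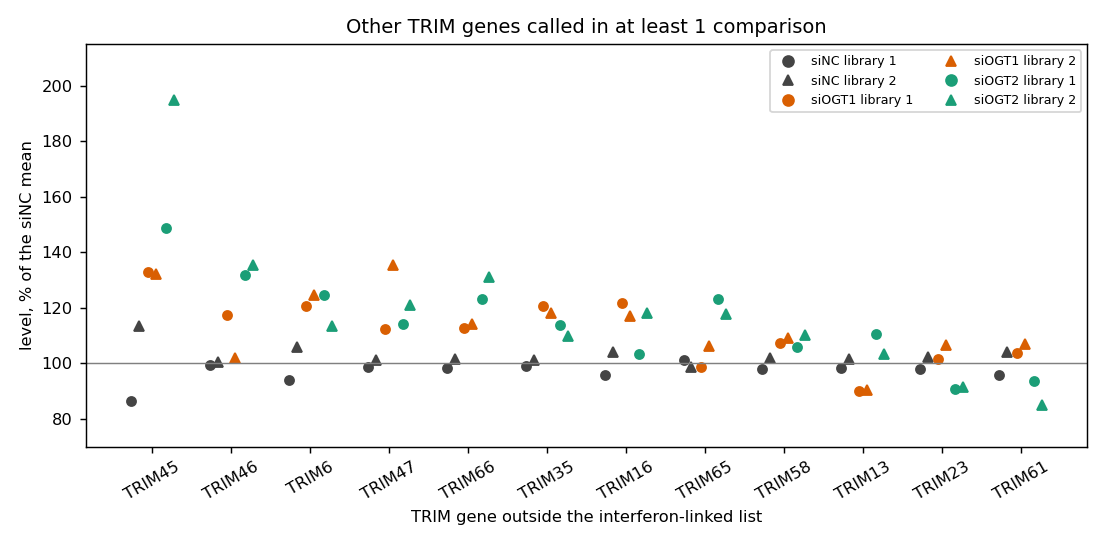
Level as a percentage of the siNC mean for the 12 TRIM genes outside the interferon-linked list that were called in at least 1 comparison; each point is 1 library, circles library 1 and triangles library 2. The highest points, 148.6% and 194.9%, are TRIM45 in the siOGT2 libraries, and the other points lie at 135.5% or less.

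Members were also read by structure, starting with those that act on chromatin. TRIM28, the corepressor recruited by KRAB zinc finger proteins, was at 31.5 and 31.7 FPKM under siNC, 30.3 and 32.0 under siOGT1, and 31.8 and 32.3 under siOGT2. Its average difference had a 95% interval from -0.07 to 0.07, and TRIM24 (-0.10 to 0.07) and TRIM33 (-0.07 to 0.10) were similarly bounded. All 3 were uncalled in every comparison, and TRIM66 was the only 1 of 4 chromatin members called. Of the NHL-repeat members TRIM2 and TRIM3 were tested and not called. The membrane-anchored TRIM13 and TRIM59 were not called against siNC either. In 17 members, TRIM28, TRIM24, TRIM33, TRIM2, TRIM3, TRIM4, TRIM8, TRIM11, TRIM27, TRIM36, TRIM37, TRIM39, TRIM41, TRIM44, TRIM52, TRIM59 and TRIM68, no difference was called in any of the 4 comparisons. A missed call does not show that a gene kept its level.

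Members that lie on the same chromosome were not all called alike. On chromosome 11, TRIM21, TRIM5 and TRIM22 fell, and TRIM6, which lies between TRIM21 and TRIM5 at 5596109 to 5612958, rose. TRIM68 (4598672 to 4608259) and TRIM3 (6448613 to 6474459) lie in the same stretch and were not called. On chromosome 6, TRIM38 fell with both siRNAs and TRIM26 with siOGT2, while TRIM27 (28903002 to 28923989), which lies between them, was not called. TRIM39 (30326479 to 30343729), the next tested member after TRIM26, was not called either.

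**Figure D5:**
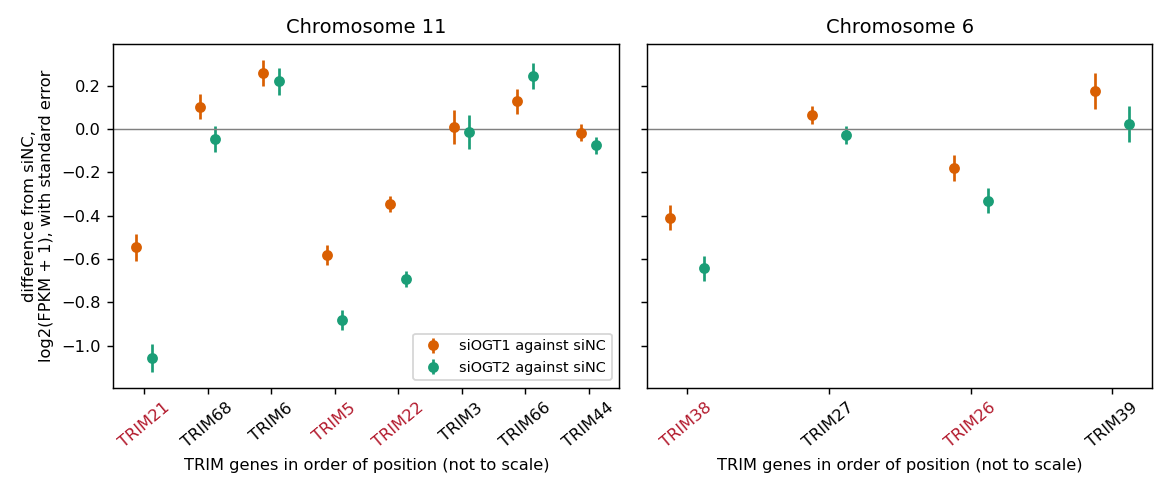
Difference from siNC in log2(FPKM + 1) for the tested TRIM genes of chromosomes 11 and 6, in order of position and not to scale; bars are standard errors and interferon-linked genes are named in red. TRIM6 lies above 0 with both siRNAs, next to TRIM5 and TRIM22 well below it.

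The siRNAs were then compared directly. Of 38 TRIM genes, 12 differed between siOGT1 and siOGT2 (16.6% of all tested genes did). In 9 the siOGT1 level was higher (8.35% of all tested genes) and in 3 lower (8.24%). Of the interferon-linked members, 7 were higher with siOGT1, that is less reduced, with the widest gaps in TRIM69 (0.53 ± 0.06, adjusted p = 0.000339) and TRIM21 (0.51 ± 0.06, adjusted p = 0.000736). TRIM14 had the opposite order, -0.27 ± 0.07 (adjusted p = 0.0228), and TRIM26 was not called (adjusted p = 0.113). OGT itself differed by -0.11 ± 0.04, which did not pass (adjusted p = 0.123). The count of 12 fell to 6 without the second siOGT2 library and to 7 without either the first siOGT1 or the first siOGT2 library. TRIM14's call was lost without the second siOGT1 library and without either siOGT2 library (adjusted p = 0.0655 to 0.126).

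Relatives of the family under other names were read next. PML, the TRIM protein that organises nuclear bodies and is itself interferon-induced, had 14.9 and 14.4 FPKM under siNC, 9.90 and 8.64 under siOGT1, and 7.67 and 7.64 under siOGT2 (average difference -0.73, adjusted p = 8.36e-06). TRIML2, a TRIM-like gene, rose from 12.3 and 13.7 to 15.8 and 15.2, and to 14.2 and 15.9 FPKM (0.22, adjusted p = 0.0144). MID1 and MID2, which act on microtubules, were tested and not called. Another 4 of the 8 relatives did not pass the filter.

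Among 12 tested E2 enzymes that TRIM proteins can use, 3 fell and 1 rose for the average of both siRNAs. Of all tested genes 11.8% fell, 19.4% rose and 31.1% were called in that comparison. UBE2L6, the E2 for the ubiquitin-like protein ISG15, had 138.6 and 123.1 FPKM under siNC, 103.4 and 99.0 under siOGT1, and 73.2 and 69.3 under siOGT2 (-0.62, adjusted p = 1.52e-05). UBE2D3 fell by 0.19 and UBE2V2 by 0.15, and UBE2E3 rose by 0.13. UBE2N, an E2 that builds signalling chains of ubiquitin, was not called. The median difference of the 12 was -0.02.

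Of 14 tested partners in nucleic acid sensing, 6 fell and 1 rose for the average of both siRNAs, where 11.8% of all tested genes fell and 19.4% rose. With siOGT1 alone 5 fell and 1 rose, and with siOGT2 alone 7 fell and 2 rose. IFIH1, which encodes MDA5, had 110.8 and 107.2 FPKM under siNC, 72.2 and 61.6 under siOGT1, and 44.6 and 40.2 under siOGT2 (-1.02, adjusted p = 3.63e-06). ZC3HAV1, which encodes the TRIM25 partner ZAP, fell by 0.55, and NMI fell by 0.66. RNF135, a RING ligase that acts on RIG-I and is not a TRIM by name, rose from 10.8 and 10.7 FPKM to 13.3 and 13.2 with siOGT1 and 13.2 in both siOGT2 libraries (0.28, adjusted p = 0.000259).

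Of 10 tested genes of interferon signalling, 8 fell and none rose for the average of both siRNAs, against the same 11.8% and 19.4%. With each siRNA alone 7 fell, but not the same 7. ISG15 fell by 1.26 and USP18, its protease, by 1.34. IRF7, a transcription factor of the response, had 24.7 and 21.8 FPKM under siNC, 15.5 and 14.3 under siOGT1, and 9.23 and 8.96 under siOGT2, and fell by 0.94. These 3 genes were in the same order of groups as TRIM21, TRIM22, TRIM25 and TRIM5, with siOGT2 lowest. IFNAR1, a subunit of the interferon receptor named here after its values were seen, had another order: 5.82 and 5.76 FPKM under siNC, 2.60 and 2.94 under siOGT1, and 6.12 and 5.94 under siOGT2. It was called lower with siOGT1 and not called with siOGT2, yet it counts among the 8 for the average. IRF9, also named after its values were seen, was called lower with siOGT2 (adjusted p = 0.0355) and not called with siOGT1 (0.2). Of 8 tested partners of TRIM28 in repression, none fell and 4 rose for the average of both siRNAs, where 19.4% of all tested genes rose. With siOGT1 alone 3 rose and none fell, and with siOGT2 alone 4 rose and 2 fell. CHD3 rose by 0.26, HDAC1 by 0.25, CBX5 by 0.22 and CBX3 by 0.13. TRIM28 itself, as given above, was not called.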

How the data were processed

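The authors deposited FPKM values for 20036 genes in 6 libraries. Adapters were trimmed with cutadapt 1.15 and reads aligned with HISAT2 to GRCh38, per the submitters' processing notes. The sources used here do not give the counting program, the annotation or the strandedness. Symbols were found for 20011 identifiers. Gene positions and shared exons came from GENCODE release 29, and promoter windows from RefSeq (GRCh38.p14), where 58 of the 73 TRIM genes had a window.

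Genes averaging 1 FPKM or more were fitted as log2(FPKM + 1) in 1 limma 3.58.1 model with a mean per group (R 4.3.3, eBayes with a trend, 3 residual and 6.31 prior degrees of freedom). The contrasts were each siRNA against siNC, their average against siNC, and siOGT1 against siOGT2. Tests were two-sided, with Benjamini-Hochberg adjustment over 10547 genes and a threshold of 0.05. Whole reads were recovered from FPKM for 99.99% of tested genes (tolerance 0.01 reads), with 64 to 13112 reads per library behind a tested TRIM gene. They gave the depth and 1 alternative test. On simulated data for siOGT1 against siNC (10450 genes), 62.6% of genes changed 1.25-fold and 95.9% of those changed 1.5-fold were called, with 0.0975% of unchanged genes. The simulation gave all genes the same dispersion, changed only 99 and 97 fitted genes by these folds and left siOGT2 unchanged. Its rates may therefore not hold in the real libraries.

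The TRIM members, the gene lists and the split into interferon-linked and other genes were chosen with earlier results of these data known. Values are given for each tested interferon-linked member and each other member called in any contrast. Of each list of other genes, up to 4 with the smallest p are named. Any further gene named (CHD4, UBE2N, IFNAR1, IRF9 and the cell type markers) was picked for context after its values were seen. Alternatives covered the pseudocount, filter, scaling, variance model, replicate block, the libraries in the fit and limma's voom on recovered reads. Some genes of these lists are not reported here.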

Additional observations from a re-analysis of the deposited data

Results flagged for a closer look

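The effects of siOGT1 and siOGT2 on 12 TRIM genes differed in the direct test of one siRNA against the other (limma, adjusted p under 0.05). Values are siOGT1 minus siOGT2 on the log2(FPKM + 1) scale. Among the interferon-linked members the differences were 0.53 for TRIM69, 0.51 for TRIM21, 0.34 for TRIM22, 0.31 for TRIM25, 0.30 for TRIM5, 0.23 for TRIM38 and 0.15 for TRIM56, all with the lower level under siOGT2. TRIM14 went the other way at -0.27, with the lower level under siOGT1. Outside the list, TRIM61 (0.22) and TRIM23 (0.18) were higher with siOGT1, and TRIM13 (-0.20) and TRIM65 (-0.20) were higher with siOGT2.

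TRIM61 had 13.6 and 14.8 FPKM under siNC, 14.8 and 15.2 under siOGT1, and 13.3 and 12.1 under siOGT2, and 33.2% of its exon bases are shared with a processed pseudogene. TRIM13, a ligase of the endoplasmic reticulum membrane, had 4.62 and 4.77, 4.22 and 4.25, and 5.19 and 4.85 FPKM. In both genes the siOGT1 and siOGT2 libraries did not overlap, and neither was called against siNC with either siRNA. Leaving out 1 library at a time ended the call in at least 1 fit for TRIM56, TRIM38, TRIM14, TRIM61, TRIM23, TRIM13 and TRIM65, and in none for TRIM69, TRIM21, TRIM22, TRIM25 and TRIM5.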

How the results depend on the processing

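No called TRIM gene changed direction under any setting tried. For the average of both siRNAs all 9 interferon-linked members were called under every setting except without the first siNC library, which gave 8. Leaving out 1 library at a time gave 8 to 11 called TRIM genes for siOGT1 (10 with all libraries), 11 to 18 for siOGT2 (17), 8 to 16 for the average (16) and 6 to 11 for siOGT1 against siOGT2 (12). The siOGT2 count was 11 without the first siNC library and 11 without the second siOGT2 library. With voom on recovered reads 16 TRIM genes were called for siOGT1. With no filter on low values 6 TRIM genes, 5 of them interferon-linked, were called between the siRNAs, against 12 and 8. Restricting the class to TRIM21, TRIM22 and TRIM25 gave 3 of 3 called in each of the 4 comparisons. The library numbers did not pair the samples (correlations of replicate differences -0.022, -0.026 and 0.049), and the replicate block gave 12, 17, 16 and 12 calls in the order above. A fit on only the groups compared could not be made for the average. For the average, TRIM16 lost its call under 10 of 16 settings and TRIM47 under 8 of 15. Between the siRNAs TRIM56 lost its call under 9 of 17. Scaling by a trimmed mean of log ratios took TRIM58 to 0.07 (adjusted p = 0.103). The causes were not tested. The filter on the mean level left TRIM34 and 34 other members untested.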
